A study of Mus musculus with 12 samples.

Results

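Serine synthesis, one-carbon metabolism and amino acid supply were followed here through 10 genes, Phgdh, Psat1, Psph, Shmt1, Shmt2, Mthfd2, Mthfd1l, Slc7a5, Slc3a2 and Asns, picked by symbol from the 50600 gene identifiers of the count files. Each symbol matched 1 Ensembl gene, and all 10 genes were among the 16052 genes with enough reads to test. The RNA came from 12 mice, 3 in each of 4 groups, and the comparisons ask how T cells that carry the NPM-ALK oncogene differ from normal thymocytes, and whether that holds when the DNA methyltransferase Dnmt1 is deleted.

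Cells that grow fast draw serine from the glycolytic intermediate 3-phosphoglycerate through PHGDH, PSAT1 and PSPH. Serine hydroxymethyltransferases, SHMT1 in the cytosol and SHMT2 in mitochondria, pass a carbon unit from serine to folate, and the MTHFD enzymes carry that unit through its oxidation states to formate, which feeds purine and thymidylate synthesis. Large neutral amino acids enter through a transporter made of the light chain SLC7A5 and the heavy chain SLC3A2, and asparagine is made inside the cell by ASNS. Activated T cells and T cell lymphomas are known for high use of serine and of this transporter.

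Ctrl mice carried floxed Dnmt1 alleles without Cre and gave thymocytes (labelled ages of 20, 21 and 25 weeks, male). KO mice were Dnmt1 fl/fl with Cd4-Cre and also gave thymocytes (20, 20 and 21 weeks). KO2 was female and the other 11 mice were male. ALK mice carried the human NPM-ALK fusion under Cd4 regulatory elements and gave cells of T cell lymphomas (22, 24 and 31 weeks), and the labels name no Dnmt1 allele for them. ALKKO mice carried NPM-ALK together with Dnmt1 fl/fl and Cd4-Cre and gave thymocytes (19, 21 and 25 weeks). The study's text gives a single, younger age for its bulk samples, and the labelled ages are used here. The Cd4 elements are active in developing T cells, and the deletion was not directed to other cell types of the tissue. All lines were on a mixed C57Bl/6 and SV/129 background. Because ALK cells were lymphoma cells and the other 3 groups were thymocytes, tumor state and genotype cannot be told apart in any comparison with ALK.

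The libraries held 12473857 to 18864327 reads on genes, with the 3 ALK libraries the shallowest at 12473857 to 14758001. Levels are given as CPM, read counts scaled to a common total after TMM correction, and 3 counts correspond to 0.159 to 0.241 CPM. Alk read 34.9 to 55.0 CPM in the 6 transgenic libraries and at most 0.431 CPM in the other 6. Dnmt1 read 205 to 244 CPM in the 6 Cre libraries, below the 400 to 487 CPM of Ctrl and the 379 to 788 CPM of ALK. Summed thymocyte markers reached 11327 to 13853 CPM in Ctrl, 9705 to 11315 CPM in ALKKO and 3736 to 5002 CPM in ALK. In ALK, Cd4 fell to 27.5 to 116 CPM and Cd5 to 0.786 to 2.22 CPM. The markers did not all fall: of 14 tested, 2 had a positive log2 fold change in ALK against Ctrl. Ptcra read 424 CPM in ALK1 and 142 CPM in ALK2, above every Ctrl library, but 32.5 CPM in ALK3, below every Ctrl library. Cd2 read 394 CPM in both ALK2 and ALK3, above every Ctrl library, but 1.88 CPM in ALK1. Rag1 was at 0 in every library although Rag2 read 335 to 422 CPM in Ctrl, so the Rag1 value is not taken as absent expression. Library KO2 stood apart: its thymocyte markers summed to 5175 CPM, and its B cell markers to 2441 CPM against 12.2 to 127 CPM in the other 11 libraries. Myeloid markers summed to 2283 CPM in KO2 and to 214 to 809 CPM elsewhere. Several member results that use KO are therefore also given without it, while non-overlap counts and counts over gene lists keep it. Stromal, endothelial and fat markers together summed to 1199 to 2570 CPM in ALK and 518 to 890 CPM in Ctrl. KO2 at 1662 CPM and ALKKO2 at 1446 CPM lay within the ALK range of this sum. Its collagen genes Col1a1, Col1a2 and Col3a1 were higher in each ALK library than in any Ctrl library. Its fat genes went the other way: Adipoq read at most 10.3 CPM in ALK, where Ctrl had at least 85.8 CPM. For Plin1 these values were 5.04 and 63.9 CPM, and the stromal gene Dcn was lower too. Thymic epithelial markers summed to 11.3 to 288 CPM in ALK, where Ctrl had 661 to 730 CPM. The part of these cell types in the member values was not tested, and in bulk RNA fewer cells of a type and less RNA per cell cannot be told apart.

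The 10 genes were higher on average in ALK than in each of the 3 thymocyte groups, and Ctrl, KO and ALKKO lay close together. A gene was called where edgeR's quasi-likelihood test gave a Benjamini-Hochberg adjusted p under 0.05 and the log2 fold change exceeded 1 in size. Against Ctrl, 6 of the 10 rose in ALK, namely Phgdh, Shmt1, Shmt2, Mthfd1l, Slc7a5 and Asns, where 8.41% of all tested genes were called higher and 12% lower. No member was called lower. The members' median log2 fold change was 1.16, and the median over all tested genes was 0.05. In 7 members every ALK library lay above every Ctrl library, a pattern that 21.3% of all tested genes shared.

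**Figure D1:**
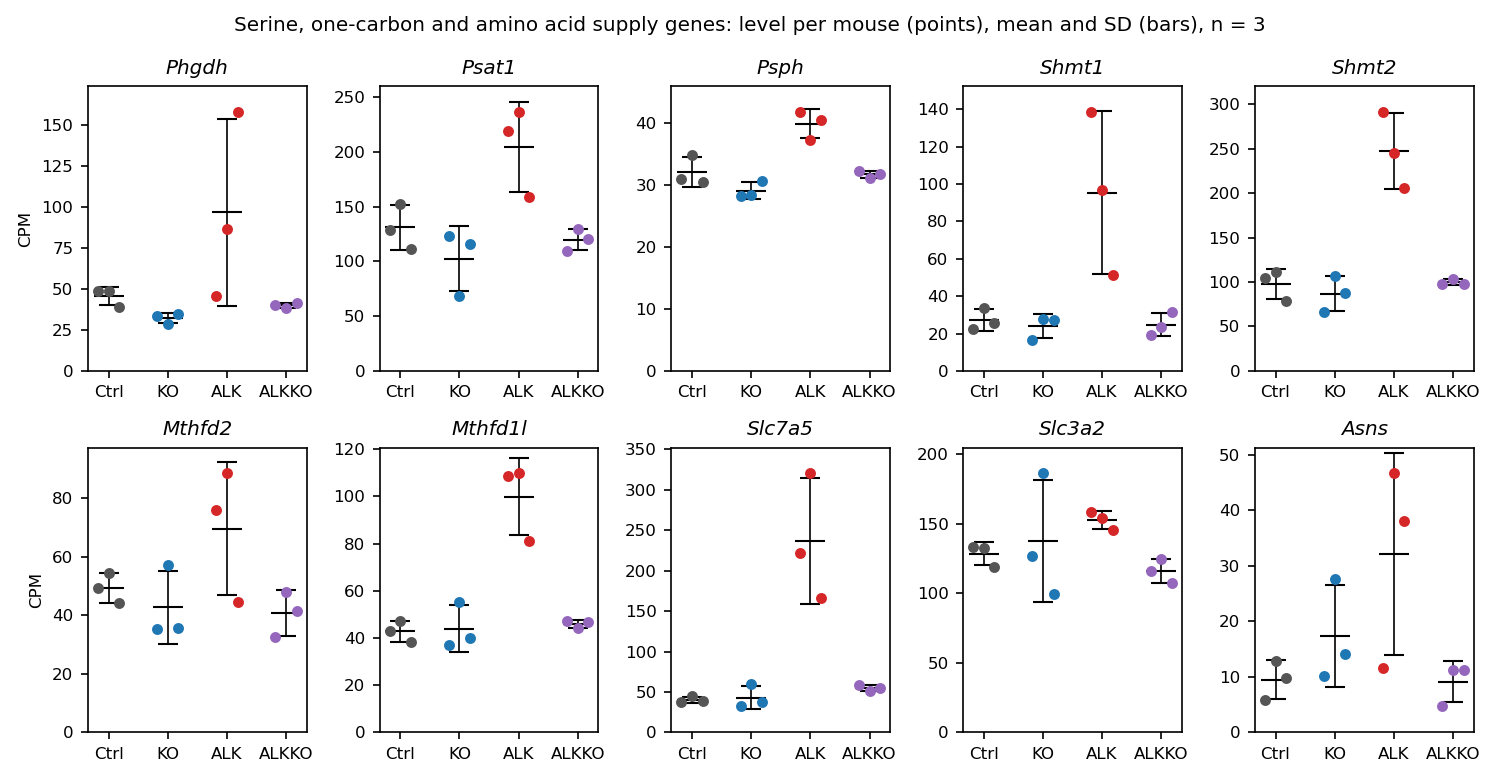
Level of each of the 10 genes in CPM (vertical axes, linear, starting at 0) in the 3 mice of each group, with the mean and SD drawn as bars. ALK points lie above those of the other groups for Psat1, Psph, Shmt1, Shmt2, Mthfd1l and Slc7a5. Phgdh, Mthfd2 and Asns each have 1 ALK mouse near the Ctrl level.

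Phgdh (chr3:98313170-98339990, minus strand, GRCm38) encodes the enzyme that commits 3-phosphoglycerate to serine. Its level was 48.8, 48.8 and 39.1 CPM in Ctrl, 33.3, 28.8 and 34.4 CPM in KO, 45.6, 86.6 and 158 CPM in ALK, with 40.4, 38.5 and 41.6 CPM in ALKKO. The 3 lymphomas were spread widely, and ALK1 lay inside the Ctrl range. The fitted change in ALK against Ctrl was 1.09 ± 0.342 (log2, SE), or 2.12-fold, with an adjusted p of 0.0364 in edgeR's quasi-likelihood test. This call depended on single mice: it was lost without each of Ctrl1, Ctrl2, Ctrl3, KO1, KO3, ALK2, ALK3, ALKKO1, ALKKO2 and ALKKO3, with adjusted p between 0.051 and 0.121, and without ALK3 the log2 fold change was 0.52. It was also lost with labelled age as a covariate (log2 fold change 0.68, adjusted p = 0.147), and ALK3, with the highest Phgdh level, came from the oldest mouse. The same held with upper-quartile scaling (adjusted p = 0.0544), no low-count filter (0.0516), at least 10 counts in every library (0.0543) and a fit of ALK and Ctrl alone (adjusted p = 0.116). The files also list 12 genes that share near-identical sequence with Phgdh, none above 0.255 CPM, and reads split with them would be missing from these values.

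Psat1 (chr19:15904678-15947337, minus strand), the transaminase of the next step, read 129, 153 and 111 CPM in Ctrl, 123, 68.3 and 116 CPM in KO, 219, 237 and 159 CPM in ALK, with 110, 129 and 121 CPM in ALKKO. All 3 ALK libraries lay above all Ctrl libraries, and KO2 was the lowest of the 12. The ALK to Ctrl difference of 0.64 ± 0.231 (log2, SE) did not pass the test (adjusted p = 0.0581). Psph (chr5:129765558-129787449, minus strand), the phosphatase that releases serine, had the narrowest range: 30.5 to 34.8 CPM in Ctrl, 28.1 to 30.7 CPM in KO, 37.2 to 41.7 CPM in ALK and 31.0 to 32.2 CPM in ALKKO. ALK did not overlap any other group, but the log2 difference from Ctrl was only 0.31 ± 0.127 (SE, adjusted p = 0.0871). Psph shares 452 exon bases, 10.4% of its exon length, with Cct6a on the opposite strand, and the strand setting of the counting is not given in the sources used here. Shmt1 shares 184 exon bases with Smcr8 and Shmt2 shares 32 with Ndufa4l2 in the same way.

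Of the folate enzymes, Shmt1 (chr11:60788104-60811718, minus strand), the cytosolic hydroxymethyltransferase, moved most. It read 22.2, 33.7 and 25.8 CPM in Ctrl, 16.6, 27.99 and 27.0 CPM in KO, 139, 96.7 and 51.1 CPM in ALK, with 19.4, 23.6 and 31.3 CPM in ALKKO. The 3 thymocyte groups covered the same range, and each lymphoma lay above it. The rise over Ctrl was 1.81 ± 0.360 (log2, SE), or 3.50-fold (adjusted p = 0.00509).

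Shmt2 (chr10:127517123-127522444, minus strand), the mitochondrial isoenzyme, read 104, 111 and 78.8 CPM in Ctrl, 66.5, 106 and 87.4 CPM in KO, 291, 245 and 206 CPM in ALK, with 98.1, 104 and 98.04 CPM in ALKKO. It rose by 1.33 ± 0.199 on the log2 scale, or 2.52-fold (adjusted p = 0.00141). Mthfd1l (chr10:3973118-4167081, plus strand), the mitochondrial synthetase that releases formate, read 43.0, 47.2 and 38.1 CPM in Ctrl, 37.0, 55.2 and 39.8 CPM in KO, 109, 110 and 81.2 CPM in ALK, with 47.2, 44.1 and 46.8 CPM in ALKKO. Its rise was 1.22 ± 0.179 (log2, SE), or 2.34-fold (adjusted p = 0.00128), so both mitochondrial enzymes had a like fold and a smaller SE than Shmt1. Both genes kept their calls against Ctrl when any 1 of the 12 libraries was left out. Shmt1 did too.

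Shmt2 and Mthfd1l both lie on chromosome 10. Of the members with a RefSeq promoter entry, only these have no part of the GENCODE gene in the 250 bases before the RefSeq start site. Those bases are therefore given here. Dnmt1 copies methylation at CpG dinucleotides. The promoters hold 7 CpG each, shown in capitals, where the median over 32851 RefSeq promoters was 6 (quartiles 2 and 16). No methylation was measured in these libraries. Both sequences are from RefSeq, build GRCm38.p6, written 5′ to 3′ on the strand of the gene, at chr10:127522445-127522694 (minus) and chr10:3972825-3973074 (plus).
Shmt2: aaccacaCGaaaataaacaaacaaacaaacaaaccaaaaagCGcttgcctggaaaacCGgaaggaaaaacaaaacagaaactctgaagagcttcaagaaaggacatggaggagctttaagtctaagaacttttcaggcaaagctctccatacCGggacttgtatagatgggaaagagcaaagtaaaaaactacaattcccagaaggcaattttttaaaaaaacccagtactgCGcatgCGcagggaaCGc
Mthfd1l: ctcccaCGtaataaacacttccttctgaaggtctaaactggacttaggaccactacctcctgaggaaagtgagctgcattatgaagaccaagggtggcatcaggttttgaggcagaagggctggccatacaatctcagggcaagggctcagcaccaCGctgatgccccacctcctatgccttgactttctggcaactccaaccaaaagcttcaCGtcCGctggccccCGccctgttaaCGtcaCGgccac
Among the members with a RefSeq promoter entry, the CpG count over the same window ran from 7 in Phgdh, Shmt2, Mthfd2 and Mthfd1l to 24 in 1 of the 2 Psat1 promoters. Genes called higher in ALK against Ctrl had 7 (Phgdh, Shmt2 and Mthfd1l), 13 (Shmt1) and 16 (Asns). Uncalled genes had 7 (Mthfd2), 11 (Slc3a2), 23 (Psph) and, for the Psat1 promoters, 16 and 24. A relation of the CpG count to the calls was not tested. The Myc-binding E-box CACGTG, which reads the same on both strands, was in none of the 10 member promoters (250 bases before to 50 after the start), and in 7.15% of all promoters.

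Mthfd2 (chr6:83305691-83325908, minus strand), the mitochondrial dehydrogenase and cyclohydrolase, differed from its partners. It read 49.3, 54.4 and 44.4 CPM in Ctrl, 35.4, 57.3 and 35.7 CPM in KO, 76.0, 88.5 and 44.5 CPM in ALK, with 32.6, 48.1 and 41.5 CPM in ALKKO. ALK3 lay within the Ctrl range, and the log2 difference from Ctrl was 0.50 ± 0.274 (SE, adjusted p = 0.191). Its relative Mthfd2l was listed at 0.269, 16.2 and 15.6 CPM in ALK against 5.04 to 6.39 CPM in Ctrl (log2 difference 0.86, adjusted p = 0.493). Without ALK1 that difference was 1.44 and was called (adjusted p = 0.00691). The cytosolic trifunctional enzyme Mthfd1 read 202, 190 and 94.2 CPM in ALK where Ctrl had 51.3 to 62.9 CPM (log2 fold change 1.51, adjusted p = 0.00263).

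Slc7a5 (chr8:121881150-121907694, minus strand), the light chain of the large neutral amino acid transporter, showed the largest change among the 10 genes. Its level was 37.9, 44.7 and 38.9 CPM in Ctrl, 32.3, 59.6 and 37.7 CPM in KO, 222, 320 and 166 CPM in ALK, with 58.4, 51.0 and 54.4 CPM in ALKKO. All 3 ALK values lay far above the highest thymocyte value, that of KO2, and ALKKO lay above Ctrl without overlap. The rise of ALK over Ctrl was 2.54 ± 0.273 (log2, SE), or 5.83-fold (adjusted p = 0.000383), and it was called in every alternative fit run, including glmTreat, a test against the 2-fold threshold itself.

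Slc3a2 (chr19:8706882-8723369, minus strand), the heavy chain that carries SLC7A5 and related light chains to the membrane, read 134, 133 and 119 CPM in Ctrl, 127, 186 and 99.8 CPM in KO, 159, 154 and 145 CPM in ALK, with 116, 125 and 108 CPM in ALKKO. ALK lay above Ctrl without overlap, but the log2 difference was 0.25 ± 0.191 (SE, adjusted p = 0.35), and KO2 exceeded every ALK library. The log2 ratio of Slc7a5 to Slc3a2 counts per kilobase of exon was therefore compared within each library. It was -1.89, -1.64 and -1.69 in Ctrl, 0.41, 0.99 and 0.12 in ALK, and -1.06, -1.36 and -1.06 in ALKKO. Group means were -1.74 ± 0.13 (SD, n = 3) in Ctrl and 0.51 ± 0.44 in ALK, a shift of 2.25 (exact two-sided permutation p = 0.1, the smallest that 3 against 3 allows). On the linear scale the light chain had 0.270 to 0.320 times the heavy chain's level in Ctrl and 1.09 to 1.98 times in ALK.

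**Figure D2:**
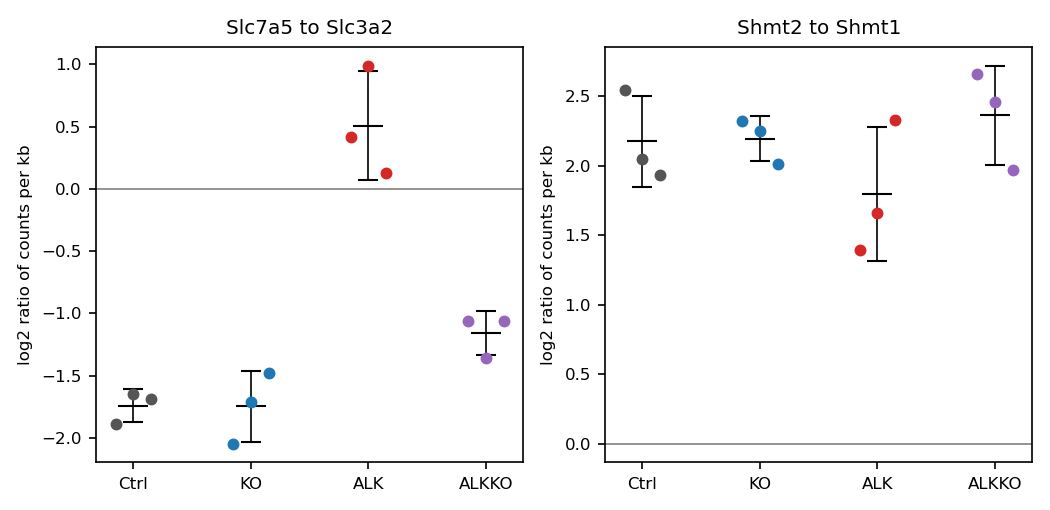
Log2 ratio of counts per kilobase of exon (vertical axes) of Slc7a5 to Slc3a2 and of Shmt2 to Shmt1 in each mouse, with bars for the mean and SD of 3 mice per group. The Slc7a5 to Slc3a2 ratio is above 0 only in the 3 ALK mice, while the Shmt2 to Shmt1 ratio overlaps between all 4 groups.

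The log2 ratio of Shmt2 to Shmt1 counts per kilobase was 2.17 ± 0.33 (SD, n = 3) in Ctrl, 2.20 ± 0.16 in KO, 1.79 ± 0.48 in ALK and 2.36 ± 0.36 in ALKKO. The mitochondrial transcript was thus the more abundant in all 4 groups. ALK differed from Ctrl by -0.38 (exact two-sided permutation p = 0.4), with the 3 lymphomas at 1.39, 1.66 and 2.33.

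Asns (chr6:7675169-7693254, minus strand), asparagine synthetase, was the lowest member in Ctrl and had the largest SE of the 10 in ALK against Ctrl. It read 5.76, 12.9 and 9.87 CPM in Ctrl, 10.2, 27.6 and 14.1 CPM in KO, 11.6, 46.6 and 38.1 CPM in ALK, with 4.84, 11.2 and 11.3 CPM in ALKKO. ALK1 lay within the Ctrl range, and KO2 lay above it. The change in ALK against Ctrl was 1.76 ± 0.579 (log2, SE), or 3.38-fold (adjusted p = 0.0432). The call was lost without each of Ctrl1, Ctrl2, Ctrl3, KO3, ALK2, ALK3, ALKKO2 and ALKKO3 (adjusted p 0.0577 to 0.148), and with no low-count filter (adjusted p = 0.0555), at least 10 counts in every library (0.0543), upper-quartile scaling (0.0504) or ALK and Ctrl alone (adjusted p = 0.0714).

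Asns is a textbook target of ATF4, the transcription factor of the amino acid response, which binds a composite CARE element. The pattern TGATGNAA, searched on both strands, was in 3.97% of the 32851 RefSeq promoters and, among the 10 member promoters, only in that of Asns, 23 to 16 bases before the start. The 30 bases around it are shown with the match in capitals (RefSeq, GRCm38.p6, chr6:7693214-7693243, minus strand).
Asns: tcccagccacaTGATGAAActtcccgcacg
Atf4 itself read 154, 214 and 203 CPM in ALK and 150 to 178 CPM in Ctrl (log2 difference 0.20, adjusted p = 0.511). RefSeq promoters matched 9 of the 10 members, and Slc7a5 had no entry.

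Compared per kilobase of exon, the members ranked Slc3a2 (36.4 CPM per kb), Shmt2 (31.5), Psat1 (30.8), Phgdh (18.3), Mthfd2 (14.2), Slc7a5 (10.9), Mthfd1l (9.64), Psph (7.40), Shmt1 (7.02) and Asns (3.47) in Ctrl. In ALK the first places were Shmt2 at 79.5, Slc7a5 at 63.7, Psat1 at 48.1 and Slc3a2 at 43.2 CPM per kb, and Psph was last at 9.19. Slc7a5 thus stood 6th in Ctrl and 2nd in ALK. Neighbours differed by less than their summed SDs throughout the ALK order and, in Ctrl, for Slc3a2 with Shmt2, Shmt2 with Psat1, Slc7a5 with Mthfd1l and Psph with Shmt1. ALKKO placed Slc3a2 (32.9), Shmt2 (32.2) and Psat1 (28.2) first, as in Ctrl, with Slc7a5 5th at 14.7 CPM per kb.

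The comparison of ALK with ALKKO asks how lymphoma cells differed from thymocytes that carried the same oncogene but lacked Dnmt1. Here 6 members were called higher, beside 7.03% of all tested genes: Slc7a5 by 2.11 (log2), Shmt1 by 1.95, Asns by 1.81, Shmt2 by 1.31, Phgdh by 1.27 and Mthfd1l by 1.12. Their adjusted p ran from 0.00078 for Slc7a5 to 0.0403 for Asns. Every ALK library exceeded every ALKKO library for 9 members, Mthfd2 being the exception, and 19.5% of all tested genes did so. Psat1 differed by 0.77 (adjusted p = 0.0315) and stayed under the fold threshold. The Phgdh call was lost without ALK3 (log2 fold change 0.71), ALKKO1, ALKKO2 or ALKKO3 (adjusted p up to 0.0685) and with age as a covariate (0.82, adjusted p = 0.103) or with ALK and ALKKO alone (adjusted p = 0.0906), and that of Asns without any library other than KO1, KO2 and ALK1 (adjusted p 0.0503 to 0.130). Without ALK3, Mthfd2 was called at 1.01 (adjusted p = 0.0119).

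Against KO, Dnmt1-deleted thymocytes without the oncogene, 5 members were called higher in ALK, and 7.94% of all tested genes. These were Slc7a5 at 2.45 (log2, adjusted p = 0.000412), Shmt1 at 2.001, Phgdh at 1.59, Shmt2 at 1.51 and Mthfd1l at 1.18, and these 5 were called without KO2 too. With age as a covariate Phgdh missed the threshold (1.04, adjusted p = 0.0571), as it did with ALK and KO alone (adjusted p = 0.0826). Psat1 reached 0.996 (1.99-fold, adjusted p = 0.00957), just under the threshold, and was called without Ctrl3, KO1, KO3 or ALK3 (log2 fold changes 1.01 to 1.15). Without KO2, its lowest KO library, Psat1 differed by 0.74 (adjusted p = 0.0193). Asns differed by 0.89 (adjusted p = 0.244), with KO2 above ALK1, and by 1.37 without KO2 (adjusted p = 0.124). Mthfd2 at 0.94 (adjusted p = 0.0325) and Slc3a2 at 0.40 (adjusted p = 0.0476) also stayed under the fold threshold without KO2. All ALK libraries exceeded all KO libraries for 7 members (18.5% of all tested genes): Phgdh, Psat1, Psph, Shmt1, Shmt2, Mthfd1l and Slc7a5.

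Among the 3 thymocyte groups no member was called by edgeR or by DESeq2. In ALKKO against Ctrl, 0 of 10 members passed, with none at an unadjusted p under 0.05, and 0.181% of all tested genes were called in either direction. The largest member difference was that of Slc7a5, 0.43 ± 0.259 (log2, SE). It was the only member whose ALKKO libraries all lay above Ctrl, which 9.92% of all tested genes did. The other 9 log2 differences ran from -0.28 for Mthfd2 to 0.11 for Mthfd1l. In KO against Ctrl, again 0 members were called or had an unadjusted p under 0.05, and 0.0187% of all tested genes were called. Phgdh was lower in every KO library than in any Ctrl library, as were 6.24% of all tested genes, but its difference of -0.50 ± 0.340 (log2, SE) did not pass (adjusted p = 0.882). Asns differed by 0.86 with KO2 and by 0.36 without it. ALKKO against KO gave 0 called members and 0 at an unadjusted p under 0.05, with 0.00623% of all tested genes called. Phgdh (log2 difference 0.32) and Psph (0.12) were the 2 members above KO in all ALKKO libraries, as were 4.09% of all tested genes. Without KO2 the Slc7a5 difference grew from 0.34 to 0.64 and remained uncalled, and that of Asns went from -0.92 to -0.41. These comparisons share the Ctrl or KO mice, so their values are not independent.

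**Figure D3:**
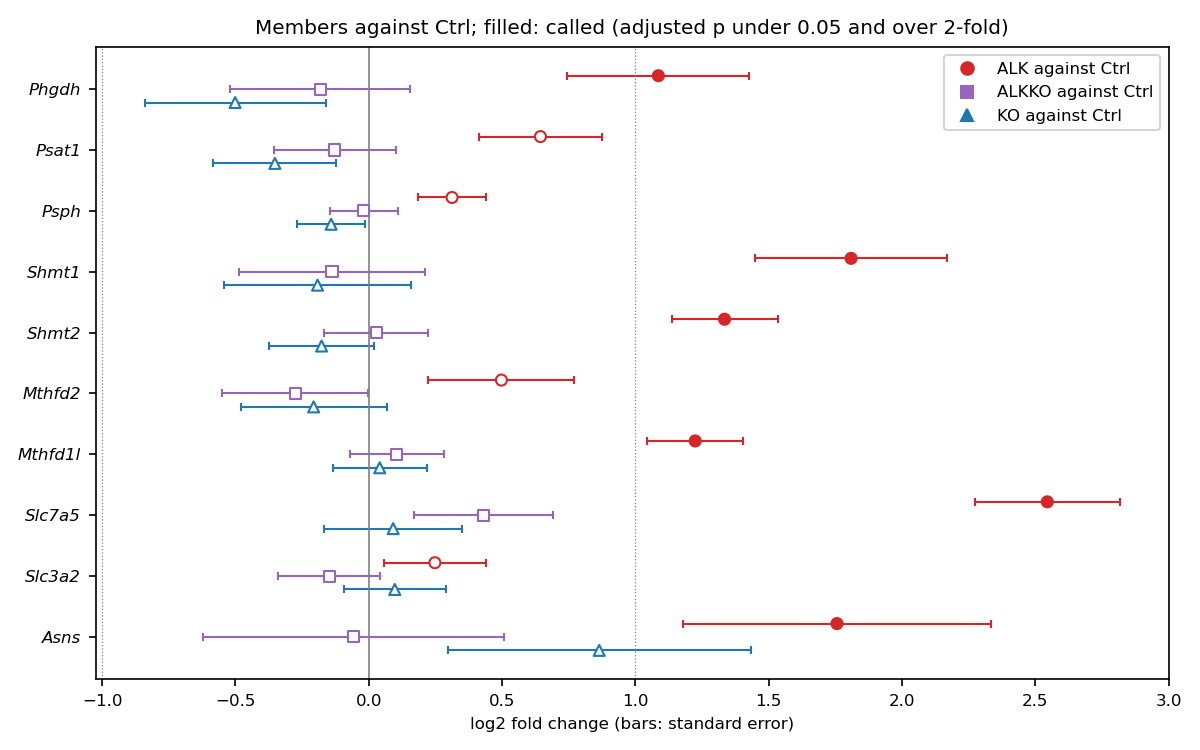
Log2 fold change against Ctrl (horizontal axis) of each member in ALK, ALKKO and KO, with the SE as bars, filled where called and dotted at 2-fold. The 6 filled points are all ALK, and Slc7a5 stands farthest from 0 at 2.54, while the ALKKO and KO points lie between -0.50 and 0.86.

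The transgene's difference was also compared between mice with and without Dnmt1. Only ALK cells were lymphoma cells, so Dnmt1 and tumor state cannot be told apart in this contrast. The contrast was the log2 fold change of ALKKO over KO minus that of ALK over Ctrl. It was negative for all 10 members, with a median of -0.95 where all tested genes had -0.08, and 3 members passed, beside 3.31% of all tested genes called in that direction. Slc7a5 differed by -2.21 ± 0.370 (log2, SE, adjusted p = 0.00779), Mthfd1l by -1.16 ± 0.251 (adjusted p = 0.0199) and Shmt2 by -1.13 ± 0.277 (adjusted p = 0.0311). Shmt1, at -1.75 ± 0.499, and Asns, at -2.68 ± 0.811, had larger differences with wider errors and missed the threshold (adjusted p = 0.0503 and 0.0606). Without KO2, Slc7a5 was the 1 member called (-1.88, adjusted p = 0.00715), while Shmt2 at -0.93 and Mthfd1l at -0.94 kept an adjusted p under 0.05 but fell under the fold threshold. The Mthfd1l call was also lost without Ctrl1, Ctrl3, ALKKO1, ALKKO2 or ALKKO3, and the Shmt2 call without any library other than KO1, ALK1 and ALK3, with adjusted p up to 0.0854. Shmt1 was called without KO1 (adjusted p = 0.0445) or ALK3 (adjusted p = 0.0127), and Asns (-3.10) and Phgdh (-1.12) without ALK1. Shmt2 also lost its call with upper-quartile scaling, library totals alone, no low-count filter or sex as a covariate, the last of which ended the Mthfd1l call too. The Slc7a5 call was kept without each of the 12 libraries in turn.

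The mean of the members' z scores was 1.31, 1.58 and 1.06 in the 3 ALK libraries and -0.81 to 0.02 in the other 9. The genes outside the set whose log2 level followed this mean most closely over the 12 libraries, among 10360 genes at 10 CPM or more, were Grwd1 (Pearson r = 0.990), Nap1l1 and Ssr2 (0.988 each), Kars (0.987) and Gnl3 (0.986). Grwd1 read 26.6 ± 2.68 CPM in Ctrl and 54.9 ± 6.95 CPM in ALK (SD, n = 3), and Gnl3 61.9 and 159 CPM on average. All 12 points share the split of 3 lymphomas against 9 thymus libraries, and within those 9 the r values were 0.922, 0.841, 0.840, 0.847 and 0.850 in the same order. Kars encodes a cytosolic tRNA synthetase, and Grwd1 and Gnl3 encode nucleolar proteins.

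The other genes of the pathway were read from lists written from general knowledge, with earlier results of these data known. Their counts stand beside the 8.41% of all tested genes called higher and 12% called lower in ALK against Ctrl. Of 34 tested genes listed under folate and one-carbon metabolism outside the set, 10 rose in ALK against Ctrl and 0 fell, with a median log2 fold change of 0.66. Those that rose were Mthfd1, the thymidine kinase Tk1, the purine enzymes Gart, Atic, Pfas, Paics and Ppat, the folate carrier Slc19a1, Ahcy, which clears S-adenosylhomocysteine, and Gcsh, a subunit of the glycine cleavage system. Gcsh read 56.97, 61.3 and 41.2 CPM in ALK, over 15.96 to 22.9 CPM in Ctrl (1.42, adjusted p = 0.00546). Against ALKKO 12 genes of this list were called higher, and against KO 13, with 0 lower in both.

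Of 32 tested amino acid transporters outside the set, 2 rose and 7 fell, with a median of -0.24. The cystine transporter Slc7a11, another light chain that pairs with SLC3A2, read 148, 154 and 140 CPM in Ctrl, 124, 35.05 and 114 CPM in KO, 3.29, 1.31 and 4.61 CPM in ALK, with 150, 130 and 91.0 CPM in ALKKO. It fell by 5.57 on the log2 scale (adjusted p = 0.00029). A further light chain, Slc7a10, had at most 1 count in each ALK library and was at least 35.3-fold lower than in Ctrl, taking 3 counts per ALK library as the floor. Slc7a10 also varied among thymus libraries, from 3.06 to 11.9 CPM in Ctrl to 0.530 CPM in KO1 and 0.484 CPM in ALKKO1. The fat marker Adipoq was low in those libraries too (13.9 CPM in KO1 and 6.54 CPM in ALKKO1, 85.8 to 159 CPM in Ctrl). The part of fat cells in the Slc7a10 values was not tested. The light chain Slc7a8 differed by -0.29 (adjusted p = 0.606) and the glutamine transporter Slc1a5 by -0.38 (adjusted p = 0.511). The 2 that rose were Slc36a4, with 95.3, 87.5 and 54.5 CPM in ALK and 20.8 to 24.4 CPM in Ctrl, and the cationic transporter Slc7a3, with 1.88 to 7.12 CPM against 0.485 to 1.004 CPM.

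**Figure D4:**
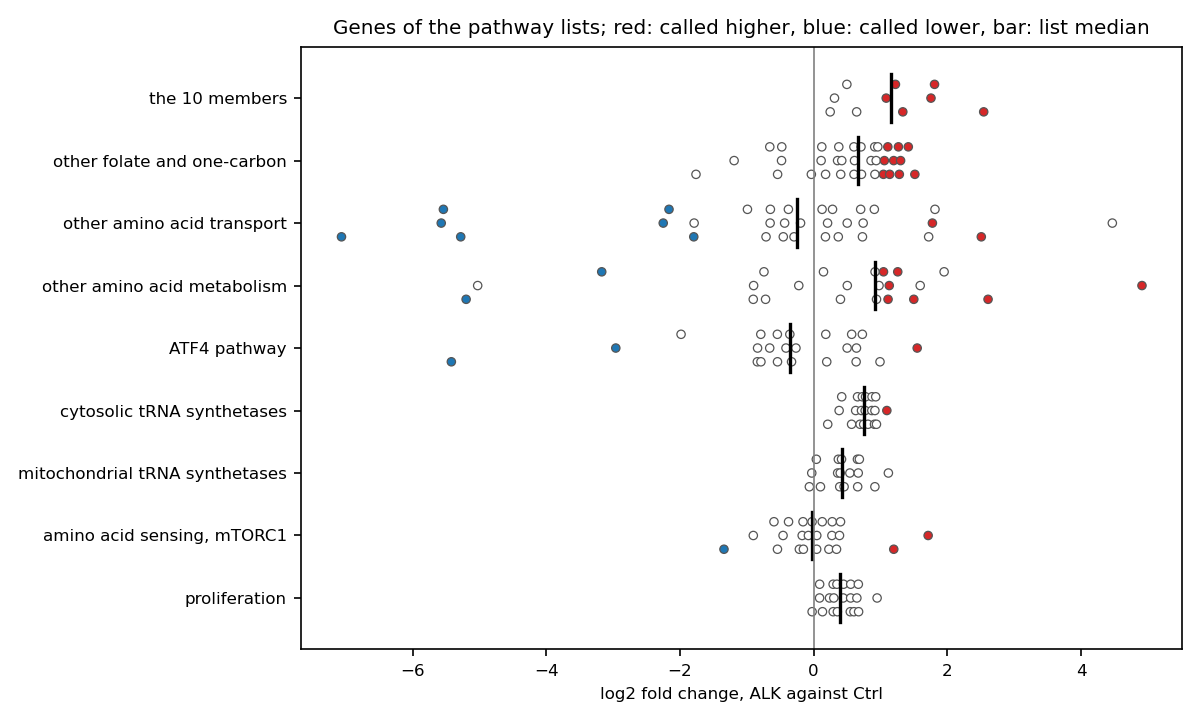
Log2 fold change of ALK against Ctrl (horizontal axis) for each tested gene of the members and of 8 pathway lists, red where called higher, blue where called lower, with a bar at each list's median. The members have a median of 1.16, other folate genes 0.66 and cytosolic tRNA synthetases 0.76, while other transporters have -0.24 and the widest spread.

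Of 23 tested genes of other amino acid synthesis and breakdown, 7 rose and 2 fell (median 0.92). The largest rise was that of arginase Arg1, from 0.159 to 0.755 CPM in Ctrl to 5.91 to 22.5 CPM in ALK (4.91, adjusted p = 0.00875). Bcat1, the cytosolic transaminase of branched-chain amino acids, which enter through SLC7A5, read 65.6, 85.4 and 15.8 CPM in ALK and 4.96 to 12.6 CPM in Ctrl (2.61, adjusted p = 0.00901). The asparagine-degrading Aspg fell from 2.75 to 12.2 CPM to 0.537 CPM in ALK1 and 0 in the other 2 lymphomas (adjusted p = 0.0176), a call lost without Ctrl3 or ALK2 (adjusted p = 0.0531 and 0.0517) or with age as a covariate (adjusted p = 0.0568). Arg2 fell by 3.17 on the log2 scale (adjusted p = 0.00553).

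The ATF4 pathway list, which holds stress-response genes regulated with Asns, gave 1 gene higher and 2 lower of 23, with a median of -0.36. Stc2 rose (1.55, adjusted p = 0.0196), though not without Ctrl2, Ctrl3, ALK1 or ALK2 (adjusted p 0.0508 to 0.0818) or in a fit of ALK and Ctrl alone (0.0741). Vldlr, a lipoprotein receptor, was at 11.95 to 31.3 CPM in Ctrl but at 2.10 to 2.50 CPM in ALK (-2.96, adjusted p = 0.0107), and the hormone Fgf21 had at most 2 counts in each ALK library, at least 10.99-fold lower than in Ctrl. Among cytosolic tRNA synthetases, which load amino acids onto tRNA, all 20 log2 fold changes were positive with a median of 0.76, but only Dars was called (1.096, adjusted p = 0.00318), and not without ALK2 (0.80) or with upper-quartile scaling (0.99). Of the 17 mitochondrial synthetases 0 were called by edgeR or DESeq2, 7 had an unadjusted p under 0.05 and 15 were positive (median 0.42). Of all 16052 tested genes, 6828 had an unadjusted p under 0.05 in edgeR and 52.5% were positive.

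Among 23 tested genes that sense amino acids for mTORC1, 2 rose and 1 fell (median -0.02): the GTPase Rragb (1.71, adjusted p = 0.00134) and the GATOR1 subunit Nprl3 (1.20, adjusted p = 0.00282), with the arginine sensor Castor1 lower (-1.34, adjusted p = 0.0159, not called without Ctrl1). Of the 4 Myc family genes, Myc rose and Mycl fell. Myc, a regulator of several members, read 244, 276 and 217 CPM in ALK, 69.8, 75.8 and 77.4 CPM in Ctrl, with 55.6, 59.1 and 94.2 CPM in ALKKO (ALK against Ctrl 1.72, adjusted p = 0.000553). Of 20 proliferation genes 0 were called in ALK against Ctrl by edgeR or DESeq2, 2 had an unadjusted p under 0.05 and 19 were positive (median 0.40). Over all 16052 tested genes, 6828 had an unadjusted p under 0.05 and 52.5% were positive. Mki67 read 1577, 1380 and 590 CPM in ALK against 748 to 886 CPM in Ctrl. Their sum was lowest within ALK in ALK3 (3715 CPM, against 8036 and 7457), the lymphoma with the lowest Psat1, Shmt1, Shmt2, Mthfd2, Mthfd1l, Slc7a5 and Slc3a2. The remaining members went otherwise: Phgdh was highest in ALK3 (158 CPM), Psph lowest in ALK2 (37.2 CPM) and Asns lowest in ALK1 (11.6 CPM). The part of cycling cells in those values was not tested. In ALKKO against Ctrl, KO against Ctrl and ALKKO against KO, edgeR called 0 genes of any of these 9 lists, with at most 4 of a list at an unadjusted p under 0.05. In the same order, 510, 886 and 432 of all 16052 tested genes had such a p. DESeq2 called 1 amino acid metabolism gene in ALKKO against Ctrl and 1 in ALKKO against KO.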

How the data were processed

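RNA from 12 mice, 3 per group, was sequenced by the authors as stranded poly(A) libraries (single-end, 50 nucleotides), trimmed with Trim Galore, aligned to mm10 with STAR and counted with HTSeq. The deposited values are raw counts per Ensembl gene, 1 file per mouse. Tool versions and the strand setting of the counting are not given in the sources used here. Of 50600 identifiers, 50376 matched GENCODE M21. The 5 lines that name no gene held 43.8 to 55.3% of the listed reads of a library (51.9 to 55.3% in ALK), mostly reads not aligned uniquely, and were left out, so reads from repeated sequence and near-identical copies are undercounted.

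Groups came from the labels. Genes were filtered with filterByExpr (16052 kept), scaled by TMM (factors 0.913 to 1.06) and tested in edgeR 4.0.16 (R 4.3.3) with the robust quasi-likelihood fit over all 12 libraries, 1 term per group, with Benjamini-Hochberg adjustment over all tested genes. SEs were derived from the F statistic. Called means an adjusted p under 0.05 and a log2 fold change above 1 in size, the thresholds of the study. Ratios within a library were compared by exact two-sided permutation tests, and p-values measure the spread between mice. Alternatives were DESeq2 1.42.0, other scalings and filters, sex, labelled age, a replicate block, the 2 groups alone, glmTreat, no fold threshold and leaving out each library. The fit was tested on simulated counts. The main fit did not treat the replicate numbers as pairs. Deviations of same-numbered mice correlated from -0.106 to 0.426 over 18 pairs, with 5 above 0.1. Those of different-numbered mice correlated from -0.457 to 0.208. These values do not settle whether the numbers mark pairs.

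The 10 members and the pathway and marker lists were chosen with earlier results of these data known. Named beside the members were Dnmt1, Alk, Mki67, Myc, Atf4, Mthfd1, Mthfd2l, Slc7a8 and Slc1a5, up to 2 called genes with the largest rise and fall from each pathway list (at least 1 CPM on average), and the 5 genes most like the members. Of the list symbols, 2 had no gene in the annotation. Other members of the lists are named where a count is spelled out, chosen after their values were seen.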

Additional observations from a re-analysis of the deposited data

Results flagged for a closer look

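The difference in the transgene effect without and with Dnmt1, on the log2 scale, passed edgeR's quasi-likelihood test after Benjamini-Hochberg adjustment for 3 members and for the further genes given here. Among members it was -2.21 for Slc7a5, -1.16 for Mthfd1l and -1.13 for Shmt2. It was also negative for Myc (-1.69), Mthfd1 (-1.46), Gcsh (-1.62), Slc36a4 (-1.57), Arg1 (-5.29), Dars (-1.04), Rragb (-1.65), Gart (-1.11), Atic (-1.19), Grwd1 (-1.05), Nap1l1 (-1.36) and Gnl3 (-1.41). For Slc7a11 (6.01), Arg2 (3.04), Cd4 (4.60) and Cd5 (7.03), which were lower in ALK, it was positive. Slc7a10 and Fgf21 were called higher too, with ALK at or under the floor of 3 counts, so no size is given. Leaving out 1 library ended the call in 9 cases for Mthfd1 (adjusted p 0.0559 to 0.0984), Shmt2 and Dars, 8 for Gcsh, 6 for Mthfd1l, 10 for Arg1, 11 for Arg2 and 3 for Rragb (Ctrl1, Ctrl2 and ALKKO3). ALK cells were lymphoma cells and the other 3 groups thymocytes, so a dependence on Dnmt1 and a dependence on tumor state cannot be told apart here.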

How the results depend on the processing

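Of 6, 6 and 5 members called in ALK against Ctrl, ALKKO and KO, the alternatives other than leaving out a library called 1 to 6, 2 to 7 and 3 to 7. glmTreat, whose null is a change within the fold threshold, called 1, 2 and 3, and 1 in the test of the transgene effect difference, where DESeq2 called 5 and sex as a covariate 1 against 3. Leaving out 1 library gave 4 to 6, 4 to 6, 5 to 6 and, for the difference, 1 to 5: 1 without Ctrl1, Ctrl3, KO2 or any ALKKO library, and 5 without ALK1. The other 3 comparisons called 0 members in every alternative run. With the replicate block the counts were 5, 6, 5, 0, 0 and 0, and 4 for the difference, and Phgdh lost its call against Ctrl (adjusted p = 0.0695). Both ratios are unchanged by the block at -0.38 and 2.25, and leaving out 1 library gave -0.65 to -0.18 and 2.01 to 2.44.

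Over all genes, ALK against Ctrl gave 3281 calls (1350 higher, 1931 lower), 1325 by glmTreat, 4734 with no fold threshold (2371 and 2363) and 1756 with at least 10 counts in every library (931 and 825), which tests fewer genes. Upper-quartile scaling moved the median of all genes from 0.05 to -0.06. Member log2 fold changes in ALK were positive in 250 of 250 combinations of member and setting against Ctrl and ALKKO and in 249 of 250 against KO, the exception being Slc3a2. No called value changed sign in any alternative. With 3 mice a group, only large differences could pass: the SE of the ALK to Ctrl log2 fold change was 0.127 for Psph and 0.579 for Asns.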

Other observations

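Within KO, library KO2 had the highest level of Shmt1, Shmt2, Mthfd2, Mthfd1l, Slc7a5, Slc3a2 and Asns and the lowest of Phgdh and Psat1. Slc7a11, at 35.05 CPM, was also lowest there. The same library held the highest B cell and myeloid marker sums of the 12.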
